A study of Rattus norvegicus with 6 samples.

Results

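Crypt stem cell and Wnt target genes were followed in the colonic epithelium of rats without a pineal gland, given melatonin or vehicle. The 9 genes, taken by symbol, were Lgr5, Axin2, Sox9, Ephb2, Ephb3, Cd44, Rnf43, Prom1 and Myc, of 13104 genes and unmatched transcripts in the table. 8 of the 9 were found through the RefSeq accession of their transcript. Ephb3 had no match by accession, and its row was found through the protein that the authors' deposited table names for it, the ephrin type-B receptor 3. Prom1 had 2 transcript rows, which were summed, and each of the other genes had 1. The 6 animals were adult Wistar males from which the pineal gland had been taken out, so that the vehicle animals lacked it as well. At the start of subjective night, 3 rats (numbered 1 to 3) were injected intraperitoneally with vehicle, 2.5% ethanol in PBS, and 3 (numbered 4 to 6) with melatonin at 1 mg/kg. The inner epithelial layer of the colon was taken 4 h later, and its RNA was sequenced. The design asks how colonic transcripts stand shortly after the hormone is given.

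The colonic epithelium is renewed from stem cells at the base of its crypts. Wnt ligands bind Frizzled and LRP receptors there, beta-catenin escapes its destruction complex and enters the nucleus, and TCF factors then switch on target genes. Some of these targets carry the stem cell programme, some drive division, some sort cells along the crypt, and some feed back to damp the pathway. The tissue is not sorted, so a change in the number of crypt base cells and a change in RNA per cell cannot be told apart in any value below.

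Promoter sequence was shown for the genes whose window before the transcription start held a TCF/LEF core motif. RefSeq windows (build GRCr8) of 250 bases were at hand for 6 of the 9 genes, 7 windows in all, and were matched by symbol. Lgr5, Sox9 and Myc had no entry. The motif CTTTGAT was searched on both strands, and it was held by 3.15% of all 33469 such windows. The motif CTTTGAA was searched in the same way and was held by 4.68%. Windows with both motifs made up 0.245%. Axin2 held both motifs, which do not overlap there, and Cd44 held the second motif on the opposite strand, where it reads TTCAAAG in the printed window. The windows of Ephb2, Ephb3 and Rnf43 and both windows of Prom1 held neither, which says only that these letters are absent from those windows. A match is a description of the sequence and not evidence of binding. The 2 windows with a match read as follows, 5′ to 3′ on the gene's strand, with the motif letters in capitals, from chr10:94398535-94398784 on the plus strand for Axin2 and chr3:109699425-109699674 on the minus strand for Cd44.
Axin2: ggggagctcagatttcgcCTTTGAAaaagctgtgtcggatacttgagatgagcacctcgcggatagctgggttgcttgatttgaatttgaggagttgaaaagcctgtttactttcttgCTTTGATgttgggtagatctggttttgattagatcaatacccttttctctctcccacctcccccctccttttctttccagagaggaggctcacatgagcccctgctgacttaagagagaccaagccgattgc
Cd44: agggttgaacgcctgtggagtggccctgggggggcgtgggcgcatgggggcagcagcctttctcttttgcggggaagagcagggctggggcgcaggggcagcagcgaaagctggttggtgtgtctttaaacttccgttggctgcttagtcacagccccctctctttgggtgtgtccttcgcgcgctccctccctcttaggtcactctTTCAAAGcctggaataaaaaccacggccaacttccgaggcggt

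In the Axin2 window the motifs began 232 and 132 bases before the start, and in the Cd44 window the match began 43 bases before it. The Axin2 window had 47.6% G and C and the Cd44 window 60.8%.

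Values are FPKM, fragments scaled to transcript length and to the mapped total of the library, as the authors deposited them. Since this unit is per length, levels of different genes can be set side by side, as far as the listed transcripts are the ones expressed. The listed lengths of the 9 genes ran from 2349 bases (Rnf43) to 4038 (Cd44). Whether these are the forms in this tissue was not tested. The mapped depth, estimated from the steps between low values, was 3300000 to 3580000 fragments per library. The markers of absorptive colonocytes and goblet cells were abundant and those of the wall beneath the epithelium were low. The 8 markers of absorptive colonocytes summed to 8469 to 10220 FPKM per animal and 6 goblet cell markers (4 with a row) to 5496 to 8292. Other epithelial lists were lower. They came to 1728 to 2242 for 3 deep crypt secretory markers and 149.3 to 197.9 for 6 enteroendocrine markers (5 with a row). The 5 tuft cell markers (4 with a row) summed to 7.88 to 15.34. The 6 smooth muscle markers (5 with a row) were about as low, at 8.37 to 14.28. The 6 fibroblast markers summed to 1.53 to 4.02, with 5 of these 6 under 1 FPKM in every animal. In melatonin animal 6, 33.3% of the tested features had their lowest value of the 6 animals, against 10.6% to 14.5% in each other animal.

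The 9 genes covered a wide range of levels. Prom1 was the highest with a mean of 156 ± 14.0 FPKM (SD, n = 6 animals). Ephb2 followed at 35.3 ± 4.06, Sox9 at 34.4 ± 5.57, Ephb3 at 22.3 ± 4.53 and Rnf43 at 20.6 ± 2.98. Myc stood at 16.8 ± 3.72, Axin2 at 13.1 ± 1.996, Cd44 at 7.51 ± 2.23 and Lgr5 at 1.63 ± 0.717. Prom1 lay above Ephb2, Axin2 above Cd44, and Cd44 above Lgr5 in 6 of 6 animals, and these 3 pairs of neighbours had ranges that did not overlap. Sox9 lay above Ephb3 in 6 of 6 animals, although the ranges overlapped. Ephb2 and Sox9 were not separated, with Ephb2 the higher in 3 of 6 animals. Ephb3 was above Rnf43 in 4 of 6 animals, Rnf43 above Myc in 4, and Myc above Axin2 in 5, all with overlapping ranges. The gap between the means of Ephb3 and Rnf43 was 1.74 FPKM, under the SD of each. That between Rnf43 and Myc was 3.83, above the SD of each, and that between Myc and Axin2 was 3.69, under the SD of Myc and above that of Axin2.

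**Figure D1:**
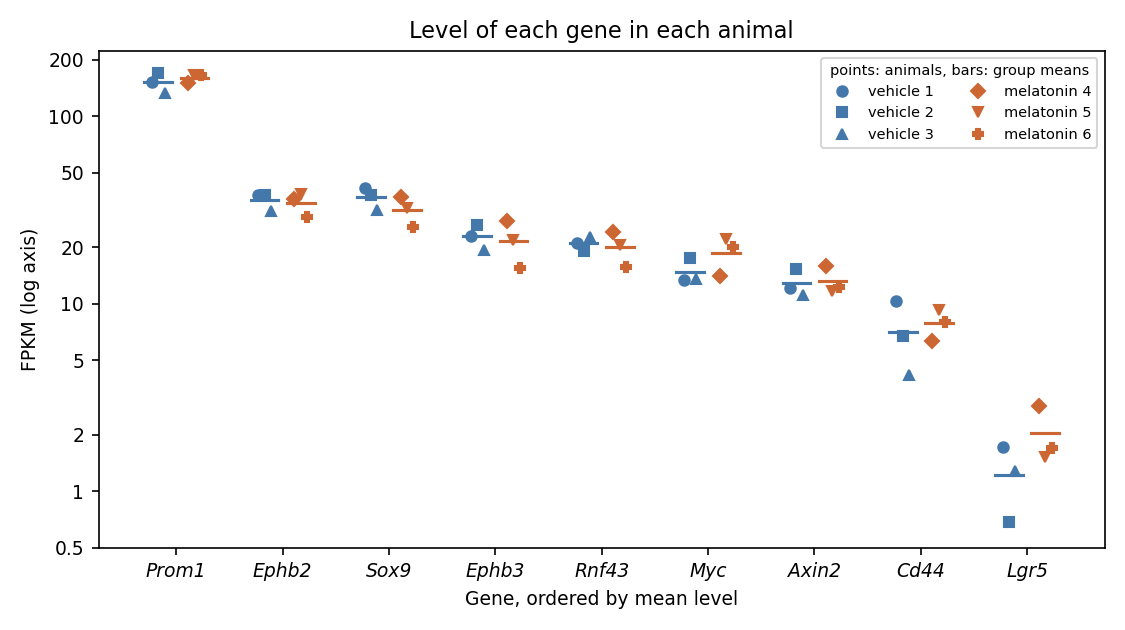
FPKM on a log axis (vertical) for the 9 genes ordered by mean level (horizontal), with 1 point per animal, vehicle in blue and melatonin in orange, and a bar at each group mean. Prom1 lies above all others, Lgr5 lies lowest, and the vehicle and melatonin points of each gene overlap.

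For none of the 9 genes did the difference between melatonin and vehicle pass the test. With limma on log2(FPKM + 1), fitted over 10137 features with a mean of at least 1 FPKM and Benjamini-Hochberg adjustment over all of them, 0 of the 9 had an adjusted p under 0.05. All 9 reached the filter. The share of all tested features called was 0% in the same fit. The smallest adjusted p of any feature was 0.182. An unadjusted p below 0.05 was reached by 0 of 9, against 3.75% of all tested features. The 3 melatonin animals lay all above the 3 vehicle animals for 0 of 9, against 4.04% of all features, and all below them for 0 of 9, against 4.33%. Groups without overlap in either direction made up 8.38% of all features. The log2 differences, melatonin minus vehicle, were positive for 5 genes and negative for 4, with a median of 0.04, where the median over all features was -0.02 and 46.0% were positive. With 1 animal left out, this median ran from -0.08 (without melatonin animal 4) to 0.17 (without vehicle animal 2), and it was also negative, at -0.05, without vehicle animal 3. The median over all features then ran from -0.05 (without melatonin animal 4) to 0.02 (without melatonin animal 6).

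**Figure D2:**
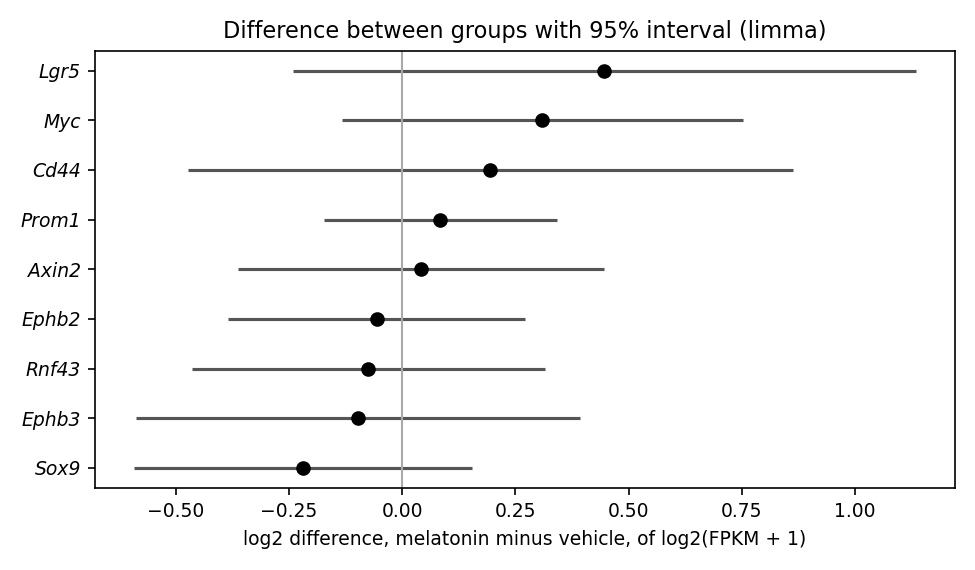
Difference between melatonin and vehicle on the log2(FPKM + 1) scale (horizontal) for each gene (vertical), with dots at the limma estimate and lines spanning the 95% interval. Every interval includes 0, and that of Lgr5 is the widest, from -0.24 to 1.13.

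Lgr5, the receptor for R-spondins that marks the cycling stem cell of the crypt base, was the lowest of the genes and the least precise. It was listed at 1.72, 0.69 and 1.28 FPKM in vehicle animals 1, 2 and 3 and at 2.87, 1.53 and 1.71 in melatonin animals 4, 5 and 6. Melatonin animal 4 lay above all vehicle animals, and animals 5 and 6 lay within their range. The group means were 1.23 ± 0.517 and 2.04 ± 0.727 (SD, n = 3 each). The log2 difference was 0.45 ± 0.30 (SE), with a 95% interval from -0.24 to 1.13 (limma adjusted p = 0.972). With a pseudocount of 0.1 in place of 1 it was 0.71, so the size of the difference of this low gene depends on that choice. The values stand for 7.0 to 30.7 estimated reads per library. Counting error alone gives a coefficient of variation of about 23.7% at that depth, against 38.6% observed within groups. In the authors' deposited table the log2 ratio of the Lgr5 group means was 0.73.

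Lgr4, another R-spondin receptor, stood far higher, at 58.4 ± 8.12 FPKM after vehicle and 57.8 ± 11.6 after melatonin, with a log2 difference of -0.02 ± 0.16. The R-spondins themselves were near the filter. Rspo1 stood at 1.37 ± 0.632 and 1.68 ± 0.675 and Rspo2 at 1.37 ± 0.456 and 1.27 ± 0.0458. Neither ligand had a limma adjusted p below 0.976.

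Axin2 and Rnf43 are feedback inhibitors of the pathway. Axin2 is a scaffold of the beta-catenin destruction complex and is widely read as a marker of Wnt signalling. It was listed at 12.21, 15.34 and 11.10 FPKM in the vehicle animals and at 15.85, 11.73 and 12.28 in the melatonin animals. Vehicle animal 2 and melatonin animal 4 were the high ones, and the groups overlapped. The log2 difference was 0.04 ± 0.18, with a 95% interval from -0.36 to 0.45 (limma adjusted p = 0.985), which on the linear scale of FPKM + 1 runs from 0.778 to 1.36 times vehicle. Axin1, which holds the same place in the complex and is not itself a usual Wnt target, was picked for comparison after its values were seen and had a log2 difference of -0.05.

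Rnf43 is a membrane ubiquitin ligase that removes Frizzled receptors from the surface and is held back by R-spondin and LGR proteins. It was listed at 21.14, 19.24 and 22.72 FPKM in the vehicle animals and at 24.27, 20.57 and 15.68 in the melatonin animals. Melatonin animal 4 was the highest of all and animal 6 the lowest. The log2 difference was -0.08 ± 0.17, with a 95% interval from -0.46 to 0.31 (limma adjusted p = 0.979). Its SD was 1.74 after vehicle and 4.31 after melatonin.

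Sox9 and Myc encode transcription factors. Sox9 is needed for the secretory and crypt base cells of the intestine. It was listed at 41.26, 37.90 and 31.72 FPKM in the vehicle animals and at 37.35, 32.39 and 25.70 in the melatonin animals. Animal 6 lay below all vehicle animals and animals 4 and 5 lay within their range. The log2 difference of -0.22 ± 0.16 had a 95% interval from -0.59 to 0.16 (limma adjusted p = 0.972) and was the most negative of the 9.

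Myc drives growth and ribosome production in dividing crypt cells. It was listed at 13.38, 17.48 and 13.52 FPKM in the vehicle animals and at 14.08, 22.08 and 20.09 in the melatonin animals. Animals 5 and 6 lay above all vehicle animals, and animal 4 lay within their range. The estimated log2 difference was 0.31 ± 0.19, with a 95% interval from -0.13 to 0.75 (limma adjusted p = 0.972), and its unadjusted p of 0.146 was the smallest of the 9.

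Ephb2 and Ephb3 are receptor tyrosine kinases of the same family that keep crypt cells below the ephrin-B expressing cells of the upper crypt. Ephb2 was listed at 38.29, 38.23 and 31.29 FPKM in the vehicle animals and at 36.42, 38.32 and 29.10 in the melatonin animals. The groups overlapped, with vehicle animal 3 and melatonin animal 6 the low ones. On the log2(FPKM + 1) scale, melatonin minus vehicle came to -0.06 ± 0.14, with a 95% interval from -0.38 to 0.27 (limma adjusted p = 0.981). Ephb3 was listed at 23.14, 26.30 and 19.31 in the vehicle animals and at 27.79, 22.02 and 15.48 in the melatonin animals. Here too vehicle animal 3 and melatonin animal 6 were the lowest of their groups. On the log2 scale the groups differed by -0.10 ± 0.21, with a 95% interval from -0.59 to 0.39 (limma adjusted p = 0.979). Their ligand gene Efnb1 stood at 93.8 ± 2.96 FPKM after vehicle and 102 ± 9.81 after melatonin, with a log2 difference of 0.11 ± 0.10.

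Cd44 and Prom1 encode surface proteins. Cd44 is a receptor for hyaluronan, found on crypt base cells and also on leukocytes. It was listed at 10.40, 6.78 and 4.16 FPKM in the vehicle animals and at 6.37, 9.32 and 8.02 in the melatonin animals. All 3 melatonin animals lay within the vehicle range, which spanned 2.5-fold. The estimated log2 difference was 0.19 ± 0.29, with a 95% interval from -0.47 to 0.86 (limma adjusted p = 0.974). The within-group coefficient of variation was 32.6%, where counting error at 58.8 to 148.6 estimated reads gives about 9.7%. Proliferation genes summed to 231.9, 160.3 and 162.0 FPKM in vehicle animals 1, 2 and 3 and to 183.7, 283.5 and 187.2 in melatonin animals 4, 5 and 6, so that vehicle animal 1 and melatonin animal 5 were the highest in this sum as in Cd44. The 4 leukocyte markers all had positive log2 differences, against 46.0% of all features, and 2 of them had all melatonin animals above all vehicle animals, against 4.04%. They summed to 10.24, 10.32 and 12.01 after vehicle and to 23.64, 15.59 and 17.21 after melatonin. The T and NK cell markers summed to 11.40, 10.51 and 3.19 and to 6.63, 13.55 and 26.41. What part these sums have in the Cd44 values was not tested. Of 10 Cd44 ligands and partners 6 were tested, 3 positive and 3 negative (median 0.04, -0.03 without melatonin animal 4 and 0.15 without melatonin animal 6). The largest difference was that of Cd74 (log2 difference 1.17 ± 0.67, limma adjusted p = 0.972). It was listed at 164.03, 75.43 and 59.88 FPKM in the vehicle animals and at 158.08, 630.83 and 86.24 in the melatonin animals. Only melatonin animal 5 lay outside the vehicle range. The table holds a single Cd44 transcript, and the other splice forms of this gene are not told apart here.

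Prom1 encodes prominin-1, also called CD133, a protein of membrane protrusions. As the sum of its transcripts it was listed at 153.23, 169.88 and 132.55 FPKM in the vehicle animals and at 150.03, 165.41 and 165.99 in the melatonin animals, all melatonin values within the vehicle range. On the log2(FPKM + 1) scale, melatonin minus vehicle came to 0.08 ± 0.11, with a 95% interval from -0.17 to 0.34 (limma adjusted p = 0.974). This was the narrowest of the 9 intervals, at 1686 to 2125 estimated reads per library.

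The 2 Prom1 transcripts divided the sum unevenly between animals. The shorter row (NM_001110137, 3554 bases) was listed at 88.91, 121.80 and 61.53 FPKM in the vehicle animals and at 92.08, 92.52 and 80.77 in the melatonin animals. The longer row (NM_021751, 3714 bases) was listed at 64.32, 48.08 and 71.02 and at 57.95, 72.89 and 85.22. The longer one made up 28.3% of the sum in vehicle animal 2 and 53.6% in vehicle animal 3, with the melatonin animals between, from 38.6% to 51.3%. The coefficient of variation over the 6 animals was 21.9% and 19.3% for the rows and 8.94% for their sum. How the authors' estimate divided reads between these rows is not given in the sources used here, and the part of that division in the shares was not tested. Taken alone, neither row passed the test (limma over unsummed transcripts, adjusted p = 0.996 and 0.972), with log2 differences of 0.01 ± 0.22 and 0.23 ± 0.19.

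**Figure D3:**
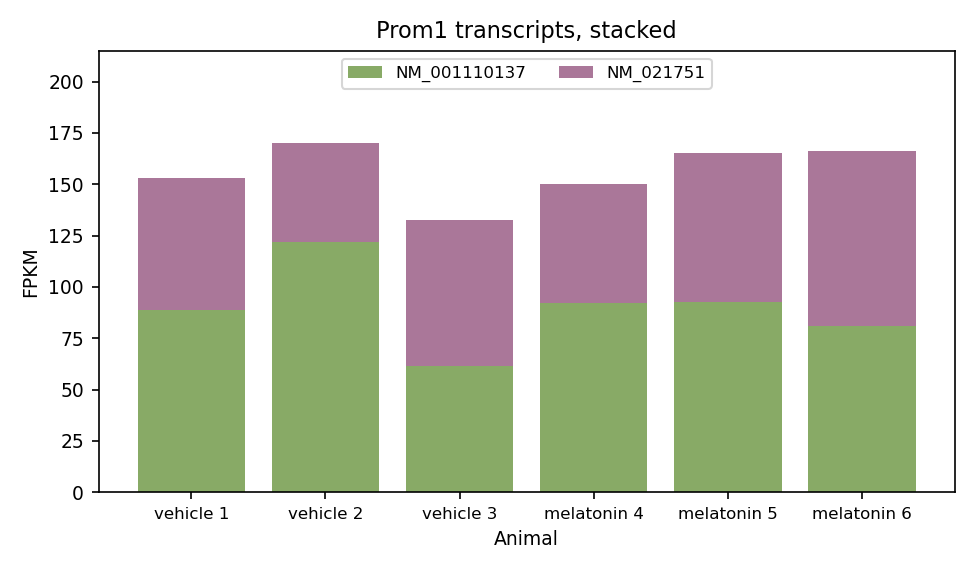
FPKM of the 2 Prom1 transcript rows (vertical, stacked bars from 0) in each of the 6 animals (horizontal), green for the shorter and purple for the longer row. The totals range from 132.55 to 169.88, while the longer row's share ranges from 28.3% to 53.6%.

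Different genes were low in different animals. In melatonin animal 6, 4 of the 9 genes had their lowest value (Sox9, Ephb2, Ephb3 and Rnf43), and in the same animal Myc lay 0.43 above the vehicle mean on the log2(FPKM + 1) scale. Sox9 lay 0.50 below that mean (deviation -0.50), Ephb3 at -0.53, Rnf43 at -0.40 and Ephb2 at -0.29. This animal also held the lowest value of 33.3% of all tested features. Its median deviation over the 9 genes was -0.05, against -0.09 over all tested features. After median-of-ratios scaling, which divides its values by 0.938, the same 4 genes were still its lowest, against 22.8% of all features. In vehicle animal 3, 3 of the 9 (Axin2, Cd44 and Prom1) had their lowest value, against 14.2% of all tested features. Its median deviation over the 9 was -0.19, against -0.0016 over all tested features. The highest medians over the 9 were 0.10 in melatonin animal 5 and 0.09 in vehicle animal 2. Melatonin animal 4 held the highest value of 4 genes and the lowest of none, against the highest of 21.4% and the lowest of 10.6% of all features.

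**Figure D4:**
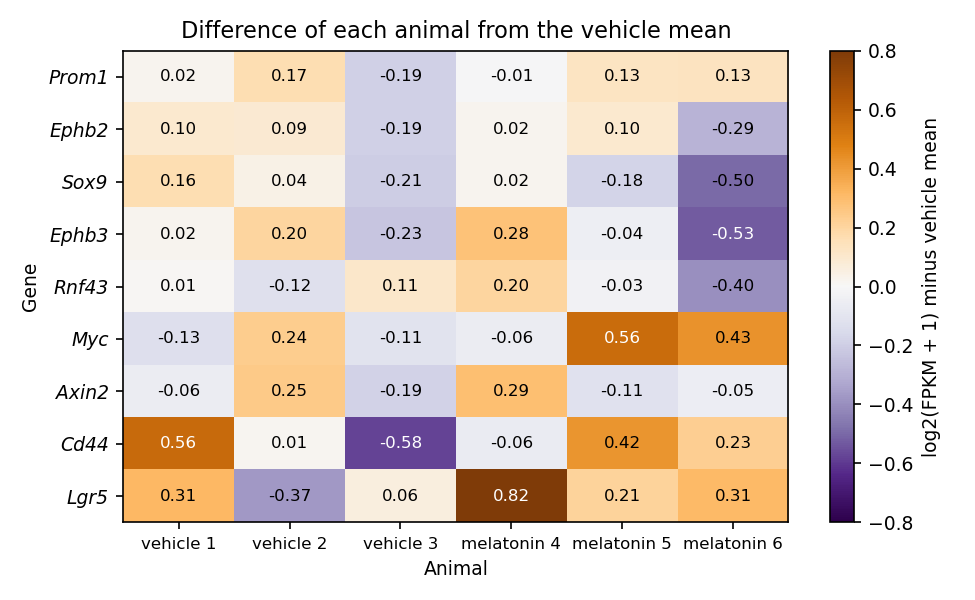
Difference of each animal (columns) from the vehicle mean on the log2(FPKM + 1) scale for each gene (rows), orange above and purple below, with the value printed in each cell. Sox9, Ephb2, Ephb3 and Rnf43 are lowest in melatonin animal 6, where Myc lies at 0.43.

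The rest of the pathway was read from lists of 192 different genes, of which 149 had a row by accession and 121 beside the 9 genes were tested. 0 of the 121 had a limma adjusted p under 0.05, 5 had an unadjusted p under 0.05 (4.13%, against 3.75% of all features), and 11 had groups that did not overlap (9.09%, against 8.38%). Of these 11, 6 had all melatonin animals above all vehicle animals and 5 had all below. The median log2 difference of the 121 was -0.01.

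Other Wnt target genes had 10 of 16 members with a row and 7 tested, 1 with a positive and 6 with a negative log2 difference (median -0.07). With 1 animal left out, the median ran from -0.26 (without vehicle animal 3) to -0.04 (without melatonin animal 6). The cyclin gene Ccnd1 stood at 150 ± 12.0 FPKM after vehicle and 148 ± 18.4 after melatonin. Ets2, a transcription factor, was listed at 129.57, 121.05 and 114.63 in the vehicle animals and at 112.00, 95.51 and 78.60 in the melatonin animals, with no overlap between the groups (log2 difference -0.36 ± 0.14, limma adjusted p = 0.972). Cdca7 went the other way without overlap, from 11.6 ± 0.199 to 14.1 ± 1.67 (log2 difference 0.25 ± 0.14, limma adjusted p = 0.972).

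Other crypt stem cell genes had 12 of 15 members with a row and 9 tested, 4 positive and 5 negative (median -0.00). Leaving out 1 animal moved the median to between -0.20 (without vehicle animal 3) and 0.18 (without vehicle animal 2). Ascl2, the stem cell transcription factor that Wnt signalling switches on, was listed at 10.92, 6.75 and 5.70 FPKM in the vehicle animals and at 6.34, 7.07 and 2.72 in the melatonin animals, with animal 6 the lowest. Hopx, a marker of slowly cycling cells, stood at 37.3 ± 5.86 and 42.7 ± 4.31. Aldh1a1, a retinaldehyde dehydrogenase, was listed at 29.39, 43.20 and 80.12 in the vehicle animals and at 50.84, 8.73 and 2.57 in the melatonin animals, where animal 4 lay within the vehicle range and animals 5 and 6 below it. Its limma adjusted p was 0.972, with a log2 difference of -1.97 ± 0.85. Olfm4, a stem cell marker of the human colon picked out after its values were seen, was listed at 0 in 5 of the animals and at 0.1 in vehicle animal 1.

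Upstream of the targets, 21 genes of Wnt ligands and their secretion were listed, 8 had a row and 3 were tested. Wnt11 was the only ligand among the 3, and the other ligands with a row had means under 1 FPKM. All 3 differences were negative (median -0.40), where 46.0% of all features had a positive one. This median was -0.71 without melatonin animal 4 and -0.26 without melatonin animal 6. Wls, the carrier that brings Wnt proteins to the surface, was listed at 10.28, 11.22 and 11.01 FPKM in the vehicle animals and at 12.86, 8.31 and 4.61 in the melatonin animals, with animal 4 the highest and animal 6 the lowest. Wnt11 stood at 3.99 ± 0.921 and 2.74 ± 1.26. Porcn, which attaches the lipid that Wnt proteins need, was listed at 3.19, 3.65 and 2.92 and at 2.81, 1.82 and 2.28, without overlap (log2 difference -0.37 ± 0.22). The limma adjusted p was 0.972 for each of the 3.

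Among Wnt receptors, 9 of 15 were tested, 3 positive and 6 negative (median -0.07). The median was -0.18 without melatonin animal 4 and 0.0044 without melatonin animal 6. Ryk stood at 56.7 ± 2.86 FPKM after vehicle and 55.6 ± 4.37 after melatonin and Fzd5 at 55.5 ± 3.56 and 49.8 ± 1.96. Fzd7, a Frizzled receptor of intestinal stem cells, was listed at 1.91, 1.86 and 2.23 in the vehicle animals and at 1.13, 1.20 and 0.90 in the melatonin animals, with all melatonin animals below (log2 difference -0.53 ± 0.24, limma adjusted p = 0.972). Of the secreted inhibitors, 3 of 11 were tested, with a median of -0.21 that ran from -0.45 (without vehicle animal 3) and -0.38 (without melatonin animal 4) to -0.05 (without melatonin animal 6) and -0.04 (without vehicle animal 1). Sfrp2 stood at 18.3 ± 5.26 and 15.6 ± 3.93, Dkk4 at 9.31 ± 1.20 and 10.3 ± 1.89, and Dkk1 at 2.47 ± 1.37 and 1.15 ± 0.957.

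The relay of the pathway runs through the beta-catenin destruction complex. Of 15 genes of the destruction complex and its relay, 14 were tested, 3 positive and 11 negative (median -0.06, -0.13 without melatonin animal 4 and 0.06 without melatonin animal 6). Ctnnb1, which encodes beta-catenin, stood at 191 ± 14.8 FPKM after vehicle and 193 ± 14.5 after melatonin (log2 difference 0.01 ± 0.10), and the kinase gene Csnk1a1 at 123 ± 16.5 and 122 ± 11.1. Of 13 nuclear factors 8 were tested, 1 positive and 7 negative (median -0.22, and -0.31 to -0.15 with 1 animal left out). Most of the 8 encode repressors or inhibitors of the pathway, and Tcf7l1 was the only TCF gene among them. The list median therefore does not describe TCF factors that switch targets on. The animals differed on this list. Its medians were 0.04 in melatonin animal 4, -0.31 in animal 5 and -0.34 in animal 6, and -0.05 to 0.11 after vehicle. Over all tested features, the medians were 0.04 in melatonin animal 4, -0.0003 in animal 5 and -0.09 in animal 6. Tcf7l1, a TCF factor that represses targets when beta-catenin is absent, was listed at 15.11, 20.21 and 12.03 in the vehicle animals and at 20.69, 7.52 and 3.62 in the melatonin animals. The co-repressor gene Tle3 stood at 33.0 ± 3.51 and 27.3 ± 3.61 and Tle4 at 27.5 ± 2.25 and 24.3 ± 4.12.

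Notch and BMP signals set cell fate along the same axis. Of the Notch genes 8 of 9 were tested, 3 positive and 5 negative (median -0.01, -0.14 without melatonin animal 4 and 0.07 without melatonin animal 6). Dll1, a Notch ligand of secretory progenitors, was listed at 8.29, 8.85 and 8.47 FPKM in the vehicle animals and at 6.94, 5.95 and 4.54 in the melatonin animals, all melatonin animals below (log2 difference -0.50 ± 0.18, limma adjusted p = 0.972). Hes1, the Notch target that favours the absorptive fate, was listed at 119.16, 113.64 and 120.66 and at 116.21, 87.06 and 61.18, and Atoh1, the factor of the secretory fate, stood at 70.0 ± 5.87 and 69.6 ± 12.1. Of the BMP genes 12 of 16 were tested, 6 positive and 6 negative (median -0.01, -0.12 without melatonin animal 4 and 0.04 without vehicle animal 3), with Id1 at 349 ± 37.0 and 347 ± 38.1 and Bmp2 at 60.2 ± 14.9 and 65.9 ± 6.87. Of the ephrins and other Eph receptors 8 of 15 were tested, 4 positive and 4 negative (median 0.03, -0.04 without melatonin animal 5 and 0.09 without melatonin animal 6).

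Around Myc, the median differences of its partners and of its targets stood on different sides of 0. Of 11 partners and regulators 8 were tested, 2 positive and 6 negative (median -0.17, and -0.02 without melatonin animal 6). Max, the obligate partner of Myc on DNA, was listed at 315.70, 302.06 and 267.94 FPKM in the vehicle animals and at 263.37, 252.75 and 249.03 in the melatonin animals, all melatonin animals below (log2 difference -0.21 ± 0.09, limma adjusted p = 0.972). Mxd1, which competes with Myc for Max, stood at 313 ± 44.3 and 361 ± 59.6. All 14 Myc target genes on the list were tested, and 14 had a positive difference (median 0.20), where 46.0% of all features did. Of the 14, 0 passed the test, and 3 had all melatonin animals above all vehicle animals, against 4.04% of all features. Their median deviations were 0.01 in melatonin animal 4, 0.32 in animal 5 and 0.31 in animal 6 and -0.02 to 0.04 after vehicle. By these medians animals 5 and 6 were high, the same 2 in which Myc itself lay above all vehicle animals. Only the median of animal 4 was level with vehicle. In that animal some targets lay below all vehicle animals and others above all of them. Npm1, the nucleolar chaperone nucleophosmin, was listed at 134.11, 141.24 and 135.57 in the vehicle animals and at 145.59, 192.01 and 168.14 in the melatonin animals (log2 difference 0.29 ± 0.11, limma adjusted p = 0.972). Fbl, the nucleolar methyltransferase fibrillarin, stood at 32.3 ± 4.58 and 42.9 ± 8.65, and the lactate dehydrogenase gene Ldha at 415 ± 44.3 and 505 ± 131. The median of the Myc target list was 0.36 without melatonin animal 4, 0.14 without animal 5 and 0.090 without animal 6. Of the 12 proliferation genes 11 were tested, 9 positive and 2 negative (median 0.20). This median turned to -0.09 without melatonin animal 5, and it was 0.06 without vehicle animal 2 and 0.39 without vehicle animal 1 or melatonin animal 6. By animal, the medians were 0.57 in animal 5, 0.07 in animal 6, 0.01 in animal 4 and -0.27 to 0.39 after vehicle, so that vehicle animal 1 lay above melatonin animals 4 and 6. Of the 11 genes, 2 had all melatonin animals above all vehicle animals, against 4.04% of all features. All below was found for 0, against 4.33%. The 2 genes were Mcm6 (log2 difference 0.44 ± 0.15) and Mcm2 (0.28 ± 0.125), each with a limma adjusted p of 0.972. What part dividing cells have in the Myc values was not tested.

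**Figure D5:**
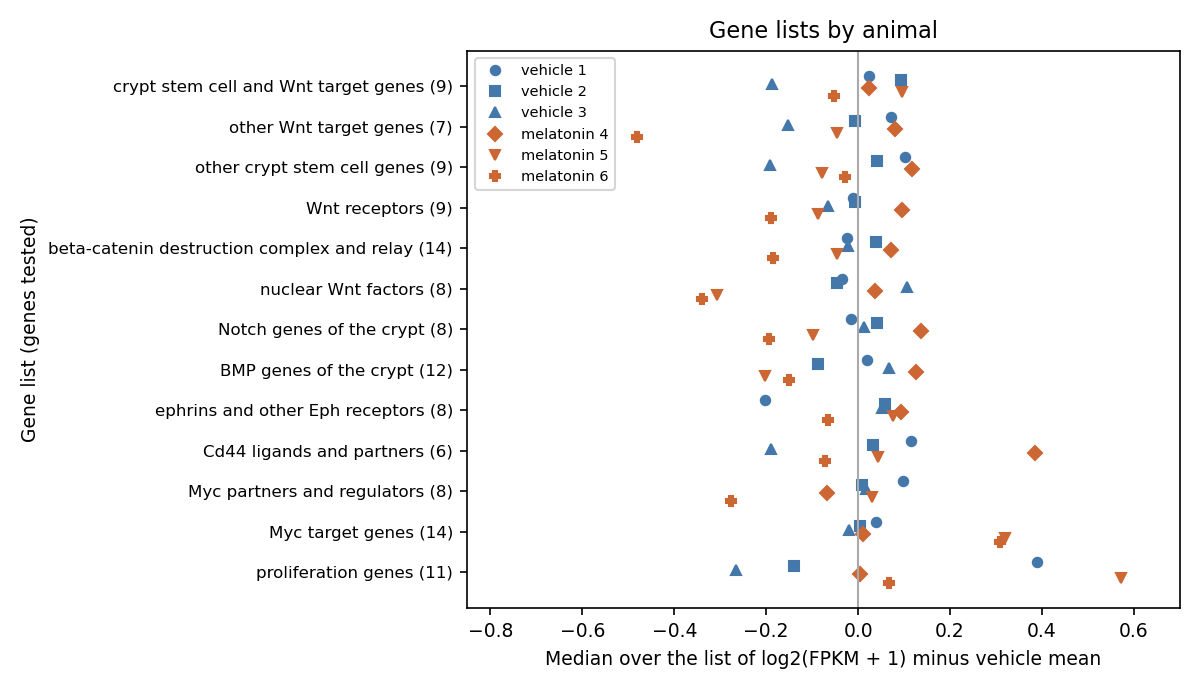
Median over each gene list (rows, with the number of genes tested) of the difference from the vehicle mean on the log2(FPKM + 1) scale (horizontal), 1 symbol per animal, vehicle in blue and melatonin in orange. Myc target genes lie at 0.32 and 0.31 in melatonin animals 5 and 6 and at 0.01 in animal 4, and nuclear Wnt factors lie at -0.31, -0.34 and 0.04.

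The genes with profiles most like Lgr5 and Axin2 were sought among named genes with a mean of at least 5 FPKM, by the root mean square difference of centred log2(FPKM + 1) values over the 6 animals. For Lgr5, whose own root mean square deviation was 0.36, these were Rasgrf2 (0.09), Zcchc10 (0.12), Srprb (0.14), Homer2 (0.15) and Rn45s (0.16). For Axin2, with a deviation of 0.18, these were Smg6, Slc50a1, Sfi1, Fastkd3 and Zfp180, at 0.04 to 0.05. None of the 9 genes stood among these. The nearest of them to Lgr5 was Rnf43 at 0.34, only rank 1521 of 7660 candidates. The nearest to Axin2 was Prom1 at 0.18, only rank 1574 of 7659. Both distances were about as large as the deviation of Lgr5 or Axin2 itself, so neither is a close likeness. The likeness was taken over 6 animals and up to 7660 candidates and is given as a description.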

How the data were processed

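RNA of the colonic epithelium of 3 vehicle and 3 melatonin rats was measured by poly(A) RNA sequencing. The authors deposited 1 table with FPKM values for 13647 RefSeq transcripts in each animal, their group means in FPKM, the log2 ratio of those means and a probability score of unstated origin. Only the deposited FPKM values per animal entered the fits, and the log2 ratio is quoted for Lgr5. Per the submitters' processing notes, BWA 0.7.10-r789, Bowtie2, RSEM and build rn6 were used, without roles. The library protocol in the labels describes no strand marking, so genes and antisense partners are not told apart.

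Accessions were matched to RefSeq symbols (GRCr8, names only) for 12883 transcripts. Transcripts of 1 gene were summed, which gave 13104 features, and 10137 with a mean of at least 1 FPKM entered a two-sided limma fit (3.58.1, under R 4.3.3) of log2(FPKM + 1) with the prior variance following the mean. Differences of low genes come out too small on this scale. No label says that animals of a group came from different litters or days, so p-values measure the spread between these animals. The depth was estimated from the steps of low FPKM values in short transcripts, where 85.6% to 90.8% of values came within 0.1 of whole reads once 36 bases were subtracted from each length. Exact counts are not known. The limma fit was tested on simulated data, and the depth estimate was not. The 9 genes and the lists were chosen with earlier results of these data known. From each list the text names the 2 genes with the highest mean and the 2 with the smallest p, other names being marked as picked later, and not every gene this takes is printed. Alternatives were another pseudocount, 2 filters, 2 scalings, unsummed transcripts, 2 variance models, a looser threshold and leaving out each animal.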

Additional observations from a re-analysis of the deposited data

How the results depend on the processing

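None of the 9 genes passed the threshold under any of the 14 other settings of the fit (smallest limma adjusted p 0.379, Myc without melatonin animal 4). Over all features, 1 was called without a filter on low values and 1 by limma without a mean trend, and between 0 and 4 when 1 animal was left out (3 without vehicle animal 1, 1 without vehicle animal 2, 4 without melatonin animal 4, 0 without each other animal). The cause was not tested. Of the list medians 9 moved by more than the spread between animals, all when 1 animal was left out. The direction of 8 of 127 values turned, all when 1 animal was left out. With 1 animal left out, the log2 difference of Axin2 ran from -0.083 (without melatonin animal 4; -0.05 without vehicle animal 3) to 0.17. That of Cd44 ran from -0.095 (without vehicle animal 3) to 0.48 and that of Prom1 from -0.0093 (without vehicle animal 3) to 0.17. Without melatonin animal 6 the upper ends were reached by Ephb2 (-0.15 to 0.060), Rnf43 (-0.21 to 0.087) and Ephb3 (-0.29 to 0.12; 0.0029 without vehicle animal 2). Lgr5 (0.26 without melatonin animal 4 or vehicle animal 2, to 0.60 without vehicle animal 1), Myc (0.19 without melatonin animal 5 to 0.49 without melatonin animal 4) and Sox9 (-0.34 without melatonin animal 4 to -0.077 without melatonin animal 6; -0.14 without vehicle animal 1) kept their direction under all 14 settings. No paired analysis was possible because the 2 groups share no replicate number. Lgr5 rests on 7.0 to 30.7 estimated reads per library, and what part depth has in its spread was not tested.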
